A study of Mus musculus with 6 samples.

Results

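Fibrinogen and acute phase plasma protein genes were examined in mouse liver RNA. The set held the 3 fibrinogen chain genes Fga, Fgb and Fgg, the scavenger genes Hp and Hpx, the carrier genes Orm1 and Saa4, the inter-alpha-trypsin inhibitor heavy chain genes Itih3 and Itih4, and the pentraxin gene Apcs. Members were chosen by name, as rows of the deposited gene table whose name, or a comma-separated part of it, equals one of these symbols. Each of the 10 had a row of its own among the 29981 rows of the table. HSKO livers (n = 3) came from mice in which Abca1, the transporter that hands cholesterol and phospholipid to apolipoprotein A-I, was deleted by a Cre recombinase under the Albumin promoter, which is active in hepatocytes. WT livers (n = 3) came from floxed controls labelled wildtype. Both groups were C57BL/6 and had food withheld between 9 am and 1 pm before the livers were taken. The sources used here do not give age, sex or whether the controls carried Cre. Each sample was a whole-liver RNA extract, in which fewer cells of a type and less RNA per cell cannot be told apart. Nothing ties each sample to an animal of its own, so a p-value covers only the spread among these samples, which may be technical.

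Fibrinogen is made in hepatocytes from alpha, beta and gamma chains, is secreted into plasma and is cleaved by thrombin into the fibrin of a clot. Haptoglobin (Hp) binds free hemoglobin, hemopexin (Hpx) binds free heme, orosomucoid 1 (Orm1) carries drugs and lipids, and the inter-alpha-trypsin inhibitor heavy chains bind hyaluronan in the extracellular matrix. In an acute phase response, IL-6 acting through STAT3 and IL-1 acting with C/EBP factors raise many of these transcripts in hepatocytes and lower those of albumin and transthyretin. In mouse, serum amyloid P (Apcs) is a main acute phase pentraxin and Saa1 and Saa2 are strongly inducible, whereas Saa4 is known as the constitutive serum amyloid A.

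The stretches upstream of the 3 fibrinogen genes are shown because these genes lie side by side and were all lower in every HSKO library than in any WT library. That of Saa4 is shown as an example of a gene whose HSKO and WT values overlapped, as those of Itih3 and Itih4 also did. The printed stretches are RefSeq promoter sequences of GRCm38.p6, which has the coordinates of mm10, written 5′ to 3′ on the strand of the gene. Capitals mark a match to 1 of 4 motifs on either strand. The motifs were the IL-6 response element core CTGGGAA, the STAT site TTCNNNGAA, the C/EBP site TTNNGNAA and the HNF1 motif GTTAAT.
Fga, chr3:83025903-83026075, plus strand: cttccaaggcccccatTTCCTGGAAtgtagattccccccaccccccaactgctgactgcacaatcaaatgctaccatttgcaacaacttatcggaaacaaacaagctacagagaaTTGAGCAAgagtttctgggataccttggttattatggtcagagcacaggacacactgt
Fgb, chr3:83049864-83050113, minus strand: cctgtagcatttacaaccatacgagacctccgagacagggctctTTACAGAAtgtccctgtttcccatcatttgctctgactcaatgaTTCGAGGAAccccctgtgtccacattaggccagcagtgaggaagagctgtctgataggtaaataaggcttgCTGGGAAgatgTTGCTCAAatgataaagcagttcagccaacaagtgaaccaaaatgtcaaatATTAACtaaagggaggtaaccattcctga
Fgg, chr3:83007474-83007723, plus strand: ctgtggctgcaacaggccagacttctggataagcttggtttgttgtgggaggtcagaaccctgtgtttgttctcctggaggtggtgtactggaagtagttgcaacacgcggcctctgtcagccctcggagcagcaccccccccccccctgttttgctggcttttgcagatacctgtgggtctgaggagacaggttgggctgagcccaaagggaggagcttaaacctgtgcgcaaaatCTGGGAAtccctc
Saa4, chr7:46732604-46732853, minus strand: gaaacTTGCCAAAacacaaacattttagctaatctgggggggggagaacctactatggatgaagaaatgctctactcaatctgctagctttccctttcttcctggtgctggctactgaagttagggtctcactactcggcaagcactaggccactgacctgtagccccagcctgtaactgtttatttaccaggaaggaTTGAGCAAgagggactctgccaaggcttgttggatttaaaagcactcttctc
The Fga stretch stops where the GENCODE M21 gene begins, 77 bases before the RefSeq start. The Fgb stretch held a match to each of the 4 motifs, with CTGGGAA at 91 to 85 bases and a C/EBP match at 80 to 73 bases before the start. Fgg had a single match, CTGGGAA at 13 to 7 bases before the start. Fga had a STAT and a C/EBP match in the printed stretch and an HNF1 match nearer to the start. Saa4 had C/EBP matches only, at 245 to 238 and 52 to 45 bases before the start.

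RefSeq promoters were at hand for 8 of the 10 genes, and the 250 bases before each start were searched, with the same search over all 32851 promoters as background. CTGGGAA was found in Apcs, Fgb and Fgg and in 9.10% of all promoters. The STAT site was found in Apcs, Fga, Fgb and Itih4 and in 7.02% of all promoters. The C/EBP site was found in Fga, Fgb, Hpx and Saa4 and in 36.8% of all promoters, and the HNF1 motif in Fga and Fgb and in 6.43%. No match of one motif overlapped a match of another in these genes. A match says only that the letters are present.

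**Figure D1:**
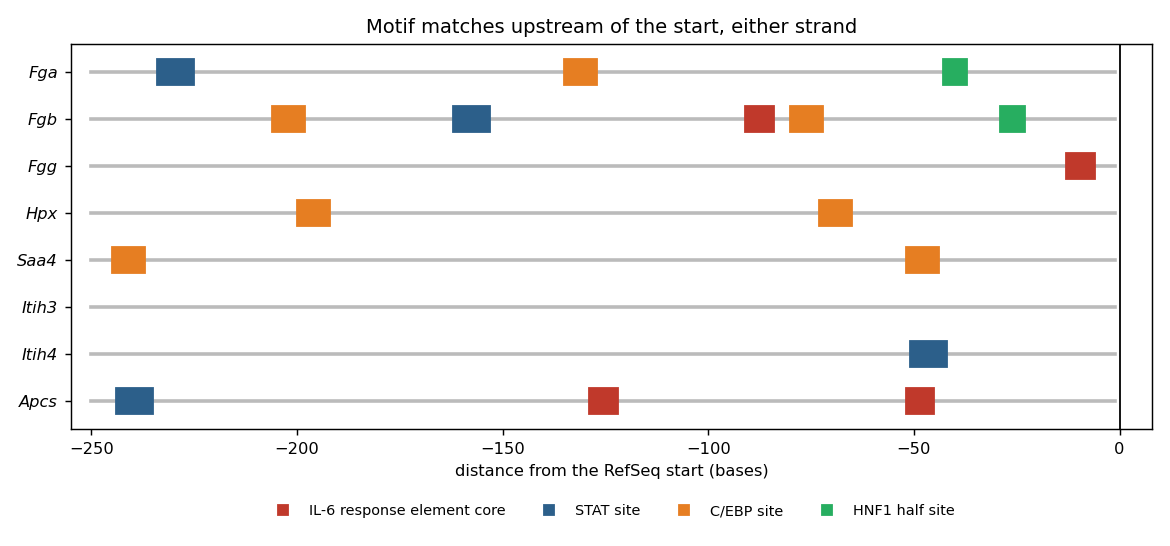
Motif matches in the 250 bases upstream of the RefSeq start of 8 genes, with the distance from the start in bases on the x axis and 1 gene per line. Coloured boxes are matches on either strand, and Fgb is the gene with a match to all 4 motifs.

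The fibrinogen genes form a cluster of 42.1 kb on chromosome 3 in mm10. Fgg spans 83007724 to 83015049 on the plus strand in 9 exons, Fga spans 83026076 to 83033627 on the plus strand in 6 exons, and Fgb spans 83040141 to 83049863 on the minus strand in 8 exons. Gaps of 11.03 kb and 6.51 kb separate them. Itih4, on the plus strand of chromosome 14 from 30886476 to 30902353, and Itih3, on the minus strand from 30908572 to 30923760, lie 6.22 kb apart. The other 5 genes are apart from these. Hp lies on chromosome 8 from 109575128 to 109579172, Hpx on chromosome 7 from 105591613 to 105600137, Saa4 on chromosome 7 from 46727998 to 46732603, Orm1 on chromosome 4 from 63344560 to 63348163 and Apcs on chromosome 1 from 172893961 to 172895041. Of the 50-base windows of the longest coding transcript, 20.4% in Orm1 were identical to a stretch of Orm2, so reads could have been split between these copies. The shared part was 3.90% in Fgg, with the predicted gene Gm30097, and 1.37% in Saa4, and the other 7 genes shared no window.

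The libraries were shallow, with 631020 to 702013 reads in HSKO and 838637 to 933319 reads in WT, of which the single row BC071253 held 46.2% to 57.8% in HSKO and 43.1% to 52.9% in WT. Abca1 had 2, 1 and 2 reads in the HSKO libraries and 20, 36 and 34 reads in the WT libraries. All 20 hepatocyte markers passed the expression filter. They summed to values between 10968 and 16048 in HSKO and between 17401 and 21007 in WT, without overlap. Neutrophil markers S100a8, S100a9, Mpo, Csf3r, Elane and Ngp had no read in any library.

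WT replicate 1 stood apart from WT replicates 2 and 3 in some acute phase transcripts. Saa1 was at 32.2, 14.5 and 9.31 in the HSKO libraries and at 232, 15.8 and 7.33 in the WT libraries. Saa2 was at 14.6, 21.8 and 9.31 in the HSKO libraries and at 190.0, 9.21 and 2.82 in the WT libraries. Orm2 was at 31.3 in WT replicate 1 and at most at 3.99 in the other 5 libraries, Fgl1 at 67.2 against 26.2 or less, and the 5 reads of Lcn2 were all in WT replicate 1. These inducible genes were singled out after their values were seen. Of 14 tested positive acute phase genes outside the set described, WT replicate 1 was the highest WT library for 9, against 44.7% of all rows tested. For Cp it was the lowest WT library, at 182 against 186 and 210 in WT replicates 2 and 3. Alb, which falls in an acute phase response, was at 2828, 3750.1 and 5217 in the HSKO libraries and at 4413, 7543 and 7320.2 in the WT libraries, so that WT replicate 1 lay within the HSKO values. The other negative acute phase genes were mixed. WT replicate 1 was the highest WT library for 4 of the 11 tested, Apoa1 and Fetub among them, against 44.7% of all rows tested. For Apoa2, Gc and Serpina6 it was the lowest WT library, as for Alb, and for Apoa1 it also lay within the HSKO values. The part of this library in the results was measured by repeating each fit without it.

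Expression values are as deposited, in reads over the size factor of the library. Fold changes are given as HSKO minus WT in log2(value + 1), a scale that understates changes of low genes. A gene was tested where its mean value over the 6 libraries was at least 10, and called where limma's adjusted p over all 2750 rows tested was under 0.05. Of the 10 genes, 9 were tested, and Apcs was below the filter.

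Fga, Fgg, Hp, Hpx and Orm1 fell in HSKO livers, to between 0.478 and 0.626 of their WT means, and Fgb was at 0.661 of its WT mean without passing the test. Saa4, Itih3 and Itih4 did not pass either. Thus 5 of 9 tested genes were called lower and 0 higher, where 11.6% of all rows tested were called lower (320 of 2750) and 28.5% higher (783). At an unadjusted p under 0.05, 7 of the 9 were lower and 0 higher. The share of all rows at this unadjusted threshold was not counted, so these numbers have no background to be judged by. The median log2 fold change of the 9 was -0.66, and that of all rows tested was 0.07. In 6 of the 9 genes no HSKO library reached the lowest WT library, which was so for 20.1% of all rows tested. On recovered reads, DESeq2 called 7 of the 9 lower and 0 higher (background 11.8% lower and 21.2% higher), and edgeR 8 lower and 0 higher (21.9% and 24.9%). Without WT replicate 1, limma called Fgg and Orm1 lower and Saa4 higher (background 11.5% lower and 30.3% higher), and the median of the 9 was -0.41. Orm1 was the single gene called without HSKO replicate 1 (background 9.45% lower and 24.9% higher) or without HSKO replicate 2 (8.76% and 23.3%).

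**Figure D2:**
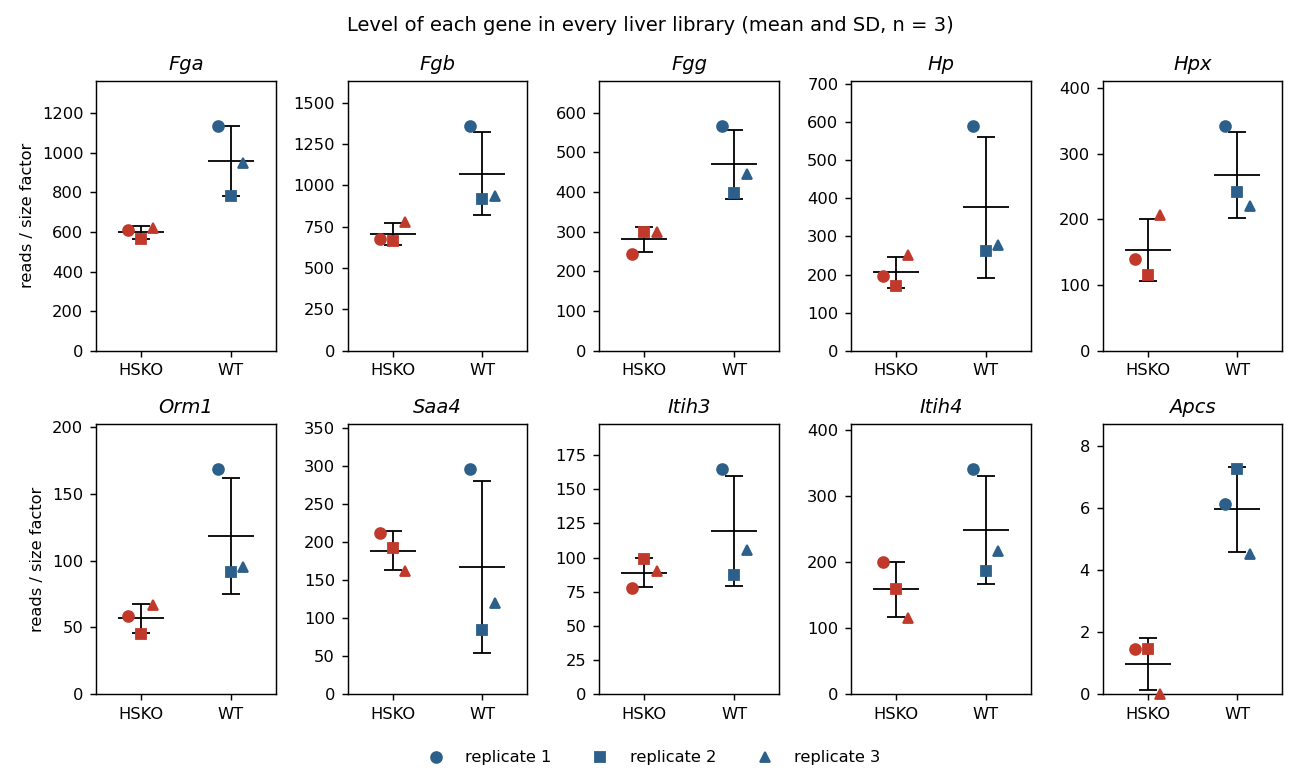
Level of each of the 10 genes in reads divided by size factor (y axis, from 0) in 3 HSKO and 3 WT libraries. Symbols mark replicates 1 to 3, and horizontal bars with whiskers give the mean and SD. WT replicate 1 (circle) is the highest library for each of the 9 genes other than Apcs.

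The calls of 8 of the 9 genes changed with the scaling between libraries, and Saa4 was not called under any scaling of the deposited values. With libraries scaled to total reads, the median of all genes tested moved to -0.64 and calls to 1135 lower (39.9%) and 223 higher (7.83%), and 8 of the 9 genes were called lower, Saa4 being the exception. With libraries scaled to the summed hepatocyte markers, the median of all genes moved to 0.65 and calls to 20 lower (0.717%) and 1129 higher (40.5%), and none of the 9 genes passed in either direction. Upper quartile scaling gave 723 lower and 580 higher calls, quantile normalization 502 and 595, total reads without BC071253 972 and 438, and edgeR 601 and 684 (lower, then higher). The median of the 9 genes minus the median of all genes was -0.73 as deposited, -0.69 on total reads and -0.73 on hepatocyte markers. It was -1.27 with quantile normalization and -0.53 without WT replicate 1. Dividing a library by 1 factor moves all its genes nearly alike. The values as deposited, on total reads and on hepatocyte markers were thus bound to be close, and their closeness is no result. As a share of all reads, the 10 genes took up 0.263% ± 0.0381 in HSKO and 0.646% ± 0.129 in WT (SD, n = 3 each), without overlap, an exact 2-sided permutation test giving p = 0.1, the smallest that 3 against 3 libraries allow. Per 100 reads of the hepatocyte markers, the 10 genes had 18.9 ± 2.96 reads in HSKO and 19.99 ± 7.43 reads in WT (SD, n = 3 each, exact permutation p = 1.0). WT replicates 2 and 3 averaged 15.7 on that measure. The part that hepatocyte content had in the falls was not tested.

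**Figure D3:**
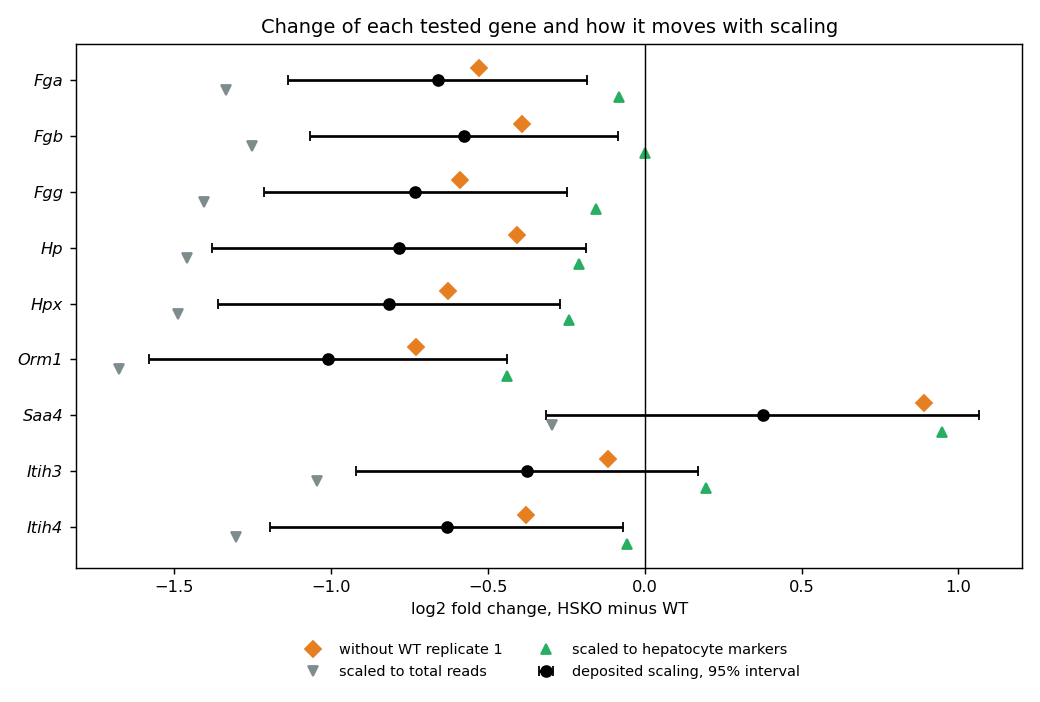
Log2 fold change (HSKO minus WT, x axis) of the 9 tested genes (y axis). Black points are on the deposited scaling with 95% limma intervals, and coloured symbols give the value without WT replicate 1, on total reads and on hepatocyte markers. Scaling to hepatocyte markers brings Fgb to 0.00, while Orm1 stays lowest at -0.44.

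Of the fibrinogen chains, Fga and Fgg were called lower and Fgb was not. Fga, the alpha chain, had 611, 563 and 622 in the HSKO libraries and 1136, 782 and 951 in the WT libraries. The groups did not overlap, and the HSKO livers lay within a narrow band. Fga averaged 599 ± 31.6 in HSKO and 957 ± 177 in WT (SD, n = 3 each), a log2 fold change of -0.66 (SE 0.23, 95% interval -1.14 to -0.18, limma adjusted p = 0.0278). The call was lost without WT replicate 1 (-0.53, limma adjusted p = 0.0729), without HSKO replicate 1 (-0.68, limma adjusted p = 0.0694) and without HSKO replicate 2 (-0.62, limma adjusted p = 0.118).

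Fgb, the beta chain, had 675, 663 and 781 in the HSKO libraries and 1359, 915 and 933 in the WT libraries. The groups did not overlap here either, and WT replicate 1 was well above the other WT livers. The means were 706 ± 64.6 in HSKO and 1069 ± 251 in WT (SD, n = 3 each), and the log2 fold change of -0.58 (SE 0.24, 95% interval -1.07 to -0.09) did not pass (limma adjusted p = 0.0566). Without WT replicate 1 it was -0.39 (limma adjusted p = 0.180), and without WT replicate 3 it passed at -0.66 (limma adjusted p = 0.0262). DESeq2 and edgeR called it lower, with adjusted p = 0.00351 and 0.00453.

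Fgg, the gamma chain, had 244, 299.5 and 298 in the HSKO libraries and 566, 397 and 446 in the WT libraries. All HSKO livers were below all WT livers. The means were 281 ± 31.5 in HSKO and 469.5 ± 87.2 in WT (SD, n = 3 each), with a log2 fold change of -0.73 (SE 0.23, 95% interval -1.21 to -0.25, limma adjusted p = 0.0174). Without WT replicate 1 it still passed, narrowly, at -0.59 (limma adjusted p = 0.0493). It did not pass without HSKO replicate 1 (-0.63, limma adjusted p = 0.0798) or HSKO replicate 2 (-0.78, limma adjusted p = 0.0516).

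The proportions of the 3 chains to each other do not depend on the scaling between libraries, and the groups overlapped in each. With 3 libraries a group, the exact 2-sided permutation test cannot give a p below 0.1. No such ratio could thus reach the threshold used for calls, and the test cannot decide whether the proportions changed. Reads of Fgb per read of Fga were 1.18 ± 0.0745 in HSKO and 1.12 ± 0.118 in WT (SD, n = 3 each, exact 2-sided permutation p = 0.6). Reads of Fgg per read of Fga were 0.470 ± 0.0668 in HSKO and 0.491 ± 0.0204 in WT (SD, n = 3 each, exact permutation p = 0.8). Reads of Fgb per read of Fgg were 2.53 ± 0.287 in HSKO and 2.27 ± 0.157 in WT (SD, n = 3 each, exact permutation p = 0.3). In all, 17 such ratios were compared, and each adjusted p was 1.0. The 3 chains together had 1.87 ± 0.121 reads per read of the other 7 genes in HSKO and 2.01 ± 0.352 in WT (SD, n = 3 each, exact permutation p = 0.6).

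Hp, the hemoglobin scavenger, had 197, 169 and 250.01 in the HSKO libraries and 589.9, 262 and 277 in the WT libraries. The groups did not overlap, but the highest HSKO liver came close to WT replicates 2 and 3, and WT replicate 1 was 2.19 times the mean of these. Hp averaged 205 ± 41.3 in HSKO and 376 ± 185 in WT (SD, n = 3 each), a log2 fold change of -0.78 (SE 0.29, 95% interval -1.38 to -0.19, limma adjusted p = 0.0351). Without WT replicate 1 it was -0.41 and was not called (limma adjusted p = 0.188). The call was also lost without HSKO replicate 1 (-0.77, limma adjusted p = 0.108) and HSKO replicate 2 (-0.65, limma adjusted p = 0.155).

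Hpx, the heme scavenger, had 139, 115 and 206 in the HSKO libraries and 342, 242 and 219 in the WT libraries. The groups were next to each other without overlap, HSKO replicate 3 lying close to WT replicate 3. The means were 153 ± 47.3 in HSKO and 268 ± 65.3 in WT (SD, n = 3 each), with a log2 fold change of -0.82 (SE 0.26, 95% interval -1.36 to -0.27, limma adjusted p = 0.0187). It was -0.63 without WT replicate 1 (limma adjusted p = 0.0631), -0.77 without HSKO replicate 1 (limma adjusted p = 0.0725) and -0.63 without HSKO replicate 2 (limma adjusted p = 0.124), and was not called in these fits. Hp reads per read of Hpx were 1.37 ± 0.136 in HSKO and 1.36 ± 0.331 in WT (SD, n = 3 each, exact permutation p = 1.0).

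Orm1, a carrier of lipophilic ligands, had 58.5, 45.1 and 66.5 in the HSKO libraries and 169, 91.5 and 95.3 in the WT libraries. All HSKO livers were below all WT livers, and WT replicate 1 was again the highest. Orm1 averaged 56.7 ± 10.8 in HSKO and 118 ± 43.5 in WT (SD, n = 3 each), the lowest log2 fold change of the 9 at -1.01 (SE 0.27, 95% interval -1.58 to -0.44, limma adjusted p = 0.00696). It was called in each of the 6 fits that left out a library, with log2 fold changes between -1.17 and -0.73 and limma adjusted p between 0.00682 and 0.0487, and at -0.73 without WT replicate 1 (limma adjusted p = 0.0351). It rested on 31 to 50 reads a library in HSKO and 139 to 221 in WT.

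Saa4, the constitutive serum amyloid A, had 212, 192 and 161 in the HSKO libraries and 295, 84.2 and 119.6 in the WT libraries. HSKO livers were above WT replicates 2 and 3 and below WT replicate 1, so the groups overlapped. The means were 188 ± 25.7 in HSKO and 166 ± 113 in WT (SD, n = 3 each). The log2 fold change of 0.38 (SE 0.33, 95% interval -0.32 to 1.07) did not pass (limma adjusted p = 0.373), and its sign turned on total reads (-0.30), on total reads without BC071253 (-0.11), with quantile normalization (-0.11), in edgeR (-0.01) and without WT replicate 2 (-0.01). Saa4 was called higher in HSKO without WT replicate 1, at 0.89 (limma adjusted p = 0.00910).

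The ratio of Orm1 to Saa4 was lower in every HSKO library than in any WT library. Reads of Orm1 per read of Saa4 were 0.276, 0.235 and 0.413 in the HSKO libraries and 0.571, 1.09 and 0.797 in the WT libraries. WT replicate 1 was the nearest WT library to HSKO. The log2 difference was -1.39, the exact 2-sided permutation test gave p = 0.1, the smallest possible, and the p adjusted over the 17 ratios was 1.0. The log2 difference without WT replicate 1 and in the other fits leaving out a library lay between -1.62 and -1.16.

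Itih4, a heavy chain of the inter-alpha-trypsin inhibitor family, had 200.2, 158 and 116 in the HSKO libraries and 340.4, 186 and 217 in the WT libraries. HSKO replicate 1 was above WT replicate 2, so the groups overlapped. The means were 158 ± 42.3 in HSKO and 248 ± 81.6 in WT (SD, n = 3 each), and the log2 fold change of -0.63 (SE 0.27, 95% interval -1.19 to -0.07) did not pass (limma adjusted p = 0.0676). Without WT replicate 1 it was -0.38 (limma adjusted p = 0.255), while DESeq2 and edgeR called it lower with adjusted p = 0.0200 and 0.00628.

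Itih3, its neighbour, had 77.5, 98.9 and 90.4 in the HSKO libraries and 165, 87.5 and 105 in the WT libraries. The HSKO values were around those of WT replicates 2 and 3, with WT replicate 1 far above. The means were 88.9 ± 10.8 in HSKO and 119 ± 40.5 in WT (SD, n = 3 each), and the log2 fold change was -0.38 (SE 0.26, 95% interval -0.92 to 0.17, limma adjusted p = 0.258). It was -0.12 without WT replicate 1 (limma adjusted p = 0.732), and 0.20 with libraries scaled to hepatocyte markers (limma adjusted p = 0.701). Reads of Itih3 per read of Itih4 were 0.387, 0.624 and 0.782 in the HSKO libraries and 0.484, 0.470 and 0.487 in the WT libraries, so the WT libraries were close to each other and the HSKO libraries spread on both sides of them (exact 2-sided permutation p = 0.4, n = 3 each).

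Apcs, the pentraxin serum amyloid P, was close to the limit of detection. It had 1, 1 and 0 reads in the HSKO libraries, where 3 reads would be a value of 3.99 to 4.38, and 8, 11 and 8 reads in the WT libraries. Its values were 1.46, 1.45 and 0 in HSKO and 6.11, 7.24 and 4.51 in WT. The groups did not overlap, and WT replicate 1 was not the highest. Over the groups and corrected for size factors, WT had 6.23 times the level of HSKO, and the exact 95% interval, for counting error alone, ran from 1.57 to 54.1. Tested without the expression filter, its log2 fold change was -1.91 and did not pass (limma adjusted p = 0.0590).

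The 9 tested genes shared their highest library. WT replicate 1 was the highest WT library for 9 of 9, and also the highest of all 6 libraries for 9 of 9, whereas it was the highest WT library in 44.7% of all rows tested. The ratio of WT replicate 1 to the mean of WT replicates 2 and 3 was 2.90 for Saa4, 2.19 for Hp, 1.81 for Orm1, 1.71 for Itih3, 1.69 for Itih4 and 1.48 for Hpx. It was lower for the fibrinogen chains, at 1.47 for Fgb, 1.34 for Fgg and 1.31 for Fga, and 1.04 for Apcs. In the same libraries it was 20.1 for Saa1 and 31.6 for Saa2, 1.94 for Serpina3n, 0.987 for Crp and 0.594 for Alb. What set WT replicate 1 apart was not tested.

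**Figure D4:**
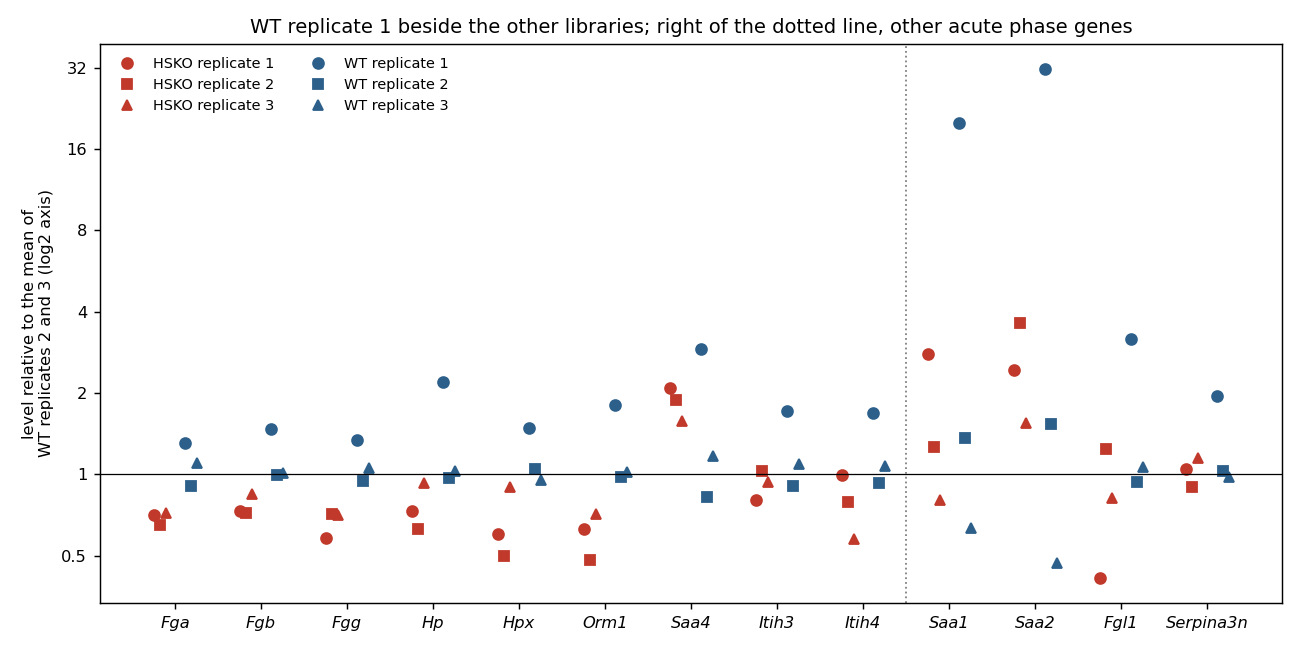
Level of the 9 tested genes and, right of the dotted line, of Saa1, Saa2, Fgl1 and Serpina3n in every library, relative to the mean of WT replicates 2 and 3 (y axis, log2 scale). Red symbols are HSKO and blue symbols WT. WT replicate 1 (blue circle) reaches 2.90 for Saa4 and 31.6 for Saa2. The genes right of the dotted line were chosen after their values were seen.

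Per kb of the longest coding transcript, the fibrinogen chains and Hp were the most abundant of these transcripts and Apcs the least. Fga had 231 ± 12.2 per kb in HSKO and 369.8 ± 68.4 per kb in WT (SD, n = 3 each). Fgb had 185 ± 17.0 per kb in HSKO and 281 ± 66.0 in WT, Fgg 161 ± 18.1 and 269.7 ± 50.1, and Hp 153 ± 30.7 and 279.7 ± 138 (HSKO first in each, SD, n = 3 each). In WT the levels per kb of Fgb, Hp and Fgg were within their spread of each other. Hpx followed with 102 ± 31.6 per kb in HSKO and 179 ± 43.6 in WT, then Orm1 with 73.1 ± 14.0 and 153 ± 56.1 (HSKO, then WT). Saa4 had 89.9 ± 12.3 per kb in HSKO and 79.5 ± 54.0 in WT, so that on these lengths it ranked above Orm1 in HSKO and below it in WT. The rank depends on the transcript taken for the length, 2094 bases for Saa4 and 775 for Orm1, and shorter transcripts were not tried. Itih4 had 44.8 ± 11.97 per kb in HSKO and 70.2 ± 23.1 in WT, Itih3 29.7 ± 3.60 and 39.9 ± 13.5 (HSKO, then WT), and Apcs 1.00 ± 0.867 in HSKO and 6.13 ± 1.41 in WT.

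Other positive acute phase genes did not move as 1 block. Of 14 tested among 25 listed, 4 fell and 2 rose in HSKO livers, with a median log2 fold change of -0.53. Of all rows tested, 11.6% were called lower and 28.5% higher. Steap4, a metalloreductase, fell to 8.45 ± 1.06 in HSKO against 24.4 ± 7.54 in WT (SD, n = 3 each, log2 fold change -1.39, limma adjusted p = 0.00352). C-reactive protein (Crp) was at 12.96 ± 7.05 in HSKO and 29.3 ± 6.82 in WT (log2 fold change -1.23), ceruloplasmin (Cp) at 111 ± 19.2 and 192 ± 15.3 (-0.80), and complement C3 at 767 ± 92.1 and 1188 ± 83.6 (-0.63, HSKO first in each). Pigr, the receptor that carries immunoglobulin A into bile, rose to 2802 ± 391 in HSKO against 1436 ± 65.1 in WT (SD, n = 3 each, log2 fold change 0.96, limma adjusted p = 0.00339), and the metallothionein Mt1 rose to 33.8 ± 15.6 in HSKO against 13.6 ± 6.72 in WT (1.26, limma adjusted p = 0.00892). On total reads neither rise passed, at 0.28 for Pigr (limma adjusted p = 0.253) and 0.62 for Mt1 (limma adjusted p = 0.158), and Pigr also missed with quantile normalization (0.16, limma adjusted p = 0.309) and on total reads without BC071253 (0.46, limma adjusted p = 0.0535). The row naming Serpina3m and Serpina3k (1224 ± 73.9 in HSKO and 1617 ± 255 in WT) and Cfb (97.4 ± 20.3 in HSKO and 143 ± 17.9 in WT) did not pass. The same 6 genes were called without WT replicate 1, with a median of -0.38. Crp lost its call without HSKO replicate 1 (-0.79) or WT replicate 2 (-1.07), Cp without HSKO replicate 2 (-0.74), Mt1 without HSKO replicate 3 (0.91), and C3 without HSKO replicate 1 (-0.59), HSKO replicate 2 (-0.58) or WT replicate 2 (-0.69).

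Genes listed as negative acute phase genes, a class that falls during inflammation, fell in most cases. Whether each listed gene, Serpina10 among them, belongs to that class was not checked. Of 11 tested, 7 fell and 0 rose, with a median log2 fold change of -0.65. The shares of all rows tested were 11.6% called lower and 28.5% higher. Transthyretin (Ttr) was at 433 ± 69.7 in HSKO and 654 ± 33.2 in WT (SD, n = 3 each, log2 fold change -0.60, limma adjusted p = 0.0384), and the vitamin D carrier Gc at 391 ± 44.4 in HSKO and 615 ± 72.1 in WT (-0.65, limma adjusted p = 0.0276). Apoa2 (-0.69), Fetub (-0.68), Serpina6 (-1.32) and Serpina10 (-1.75) also fell. Albumin, at 3932 ± 1205 in HSKO and 6426 ± 1746 in WT, missed the threshold (-0.71, limma adjusted p = 0.0525), and Apoa1 was at 2009 ± 542 in HSKO and 2026 ± 233 in WT. Among the 20 hepatocyte markers, some of which are in this list, 7 fell and 0 rose, with a median of -0.46, and the part of hepatocyte content in these falls was not tested. Leaving out WT replicate 1, 6 of the negative acute phase genes and 8 of the hepatocyte markers fell, with medians of -0.61 and -0.55. The count of negative acute phase genes called lower was 2 without HSKO replicate 1, 1 without HSKO replicate 2, 1 without WT replicate 2 and 3 without WT replicate 3, and 9 without HSKO replicate 3. The count of hepatocyte markers called lower was 2 when HSKO replicate 1, HSKO replicate 2 or WT replicate 2 was left out, 3 when WT replicate 3 was and 6 when HSKO replicate 3 was. Calls also changed over all rows tested, with 9.45% lower without HSKO replicate 1, 8.76% without HSKO replicate 2 and 10.8% without HSKO replicate 3. The shares were 5.68% without WT replicate 2 and 5.63% without WT replicate 3.

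Partners of fibrinogen in clotting and clot removal fell in part. Of 9 tested among 13, 6 fell and 0 rose, with a median of -0.69, where 11.6% of all rows tested were called lower and 28.5% higher. Plasminogen (Plg), whose active form digests fibrin, had 254, 268 and 226 in the HSKO libraries and 472, 413 and 452 in the WT libraries. All HSKO livers were far below all WT livers, the log2 fold change being -0.84 ± 0.22 (SE, limma adjusted p = 0.00584). Prothrombin (F2) was at 106 ± 6.00 in HSKO and 174 ± 12.3 in WT (-0.71), antithrombin (Serpinc1) at 139 ± 27.03 in HSKO and 223 ± 19.3 in WT (-0.69), and the factor XIII B chain (F13b) at 19.3 ± 5.09 in HSKO and 38.5 ± 4.59 in WT (-0.98). Cpb2 (-0.85) and Fn1 (-0.69) also fell, and Vtn (-0.53) and Hrg (-0.47) did not pass. F13b, F2, Plg and Serpinc1 were still called lower without WT replicate 1, and the median was -0.65. The count called lower was 3 without HSKO replicate 1, 3 without HSKO replicate 2, 1 without WT replicate 2 (Plg), 4 without WT replicate 3 and 5 without HSKO replicate 3. The shares of all rows called lower in these fits are those given with the negative acute phase genes.

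Among 3 tested partners of Itih3 and Itih4, the heavy chain gene Itih2 fell to 89.7 ± 21.5 in HSKO against 139.9 ± 13.8 in WT (SD, n = 3 each, log2 fold change -0.66, limma adjusted p = 0.0397). Itih1 (-0.63) and Ambp (-0.52), which codes for bikunin, did not pass. Among 5 tested genes of heme and hemoglobin clearance, Lrp1, the receptor that takes up heme bound to hemopexin, fell to 48.6 ± 17.0 in HSKO against 82.1 ± 5.86 in WT (-0.81, limma adjusted p = 0.0273), and the ferritin genes Fth1 (-0.29) and Ftl1 (-0.30) did not pass. The call of Lrp1 was lost without HSKO replicate 3 (-0.49, limma adjusted p = 0.150) and without WT replicate 2 (-0.77, limma adjusted p = 0.0906). Itih2 was not called without HSKO replicate 1 (-0.48), HSKO replicate 2 (-0.66), WT replicate 2 (-0.63) or WT replicate 3 (-0.60), with limma adjusted p between 0.0856 and 0.170.

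Signalling genes and transcription factors of the acute phase response moved in both directions. Of 13 tested among 29, 5 rose and 2 fell, with a median log2 fold change of 0.02. Over all rows tested, 28.5% were called higher and 11.6% lower, and the median was 0.07, so this list was close to the background. Cebpb, a transcription factor of acute phase genes, had 127, 108 and 168 in the HSKO libraries and 64.9, 59.9 and 47.9 in the WT libraries. Every HSKO liver was above every WT liver, the log2 fold change being 1.19 ± 0.25 (SE, limma adjusted p = 0.00142), which did not pass on total reads (0.53, limma adjusted p = 0.0952). Il1rap, the accessory chain of the IL-1 receptor, had 656, 768 and 547 in the HSKO libraries and 353, 289.6 and 214 in the WT libraries. The groups were well apart, the log2 fold change being 1.21 ± 0.24 (SE, limma adjusted p = 0.00112), and it was called under each scaling tried.

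Cebpd, a related factor, rose to 16.9 ± 2.17 in HSKO against 6.11 ± 0.470 in WT (SD, n = 3 each, log2 fold change 1.33, limma adjusted p = 0.00978), and Foxa1, a hepatocyte transcription factor, to 35.6 ± 13.5 in HSKO against 15.2 ± 1.08 in WT (1.10, limma adjusted p = 0.00939). Both calls were lost on total reads with or without BC071253, at 0.45 to 0.89 on the log2 scale. Il6ra, the IL-6 receptor, was at 20.5 ± 8.24 in HSKO and 9.25 ± 3.27 in WT (1.03, limma adjusted p = 0.0363), which did not pass in DESeq2 (adjusted p = 0.121), in edgeR (adjusted p = 0.0566) or without WT replicate 1 (0.87, limma adjusted p = 0.0958). It also missed without HSKO replicate 1 (0.95), HSKO replicate 3 (0.78) or WT replicate 2 (0.95), and Foxa1 without HSKO replicate 2 (0.87). Creb3l3, a membrane-bound factor of acute phase genes, fell to 39.8 ± 15.8 in HSKO against 68.1 ± 15.7 in WT (-0.82, limma adjusted p = 0.0394), and the row naming Gm16551 and Onecut1 to 9.42 ± 0.711 in HSKO against 20.3 ± 6.49 in WT (-0.99, limma adjusted p = 0.0254). Cebpa was at 195 ± 40.5 in HSKO and 183 ± 39.6 in WT, and Hnf4a at 67.5 ± 11.1 and 69.9 ± 4.54, and neither passed. Cebpb, Cebpd, Foxa1 and Il1rap were called higher and the row naming Onecut1 lower without WT replicate 1, with a median of 0.24. Creb3l3 lost its call without HSKO replicate 2 (-0.45), WT replicate 1 (-0.66) or WT replicate 3 (-0.81), and the row naming Onecut1 without WT replicate 2 (-0.76) or WT replicate 3 (-1.05).

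Most calls in these lists were lost when 1 or another of the 6 libraries was left out. Over all rows, too, fewer were called lower in these fits, 154 to 315 against 320. In the lists other than those of cell type markers, Steap4, Pigr, Serpina10, Plg, Cebpb, Cebpd and Il1rap were called in all 6 such fits. With libraries scaled to hepatocyte markers, Serpina10 was the one gene among the falls of these lists that was still called. Of the marker lists of other cell types, Kupffer cells and macrophages had 2 genes tested. Cd5l fell (not called without HSKO replicate 1 or 2 or WT replicate 3, and below the filter without WT replicate 2). Marco went the other way without passing, at 15.1 ± 11.4 in HSKO and 8.77 ± 9.27 in WT (SD, n = 3 each, log2 fold change 1.01, limma adjusted p = 0.219). Stellate cells had Dcn, which fell and was called lower in each fit that left out a library. Erythroid cells had Alas2, which did not pass. Kupffer cell and macrophage markers summed to between 52.3 and 87.8 in HSKO and between 63.3 and 109.9 in WT, and neutrophil markers to 0 in HSKO and at most 0.763 in WT. Hepatic stellate cell markers summed to between 21.9 and 42.2 in HSKO and between 49.6 and 52.6 in WT, without overlap, and sinusoidal endothelial markers to between 32.0 and 48.2 in HSKO and between 45.8 and 55.8 in WT. The part of these cell types in the falls was not tested. No sinusoidal endothelial, cholangiocyte, neutrophil or lymphocyte marker passed the filter.

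**Figure D5:**
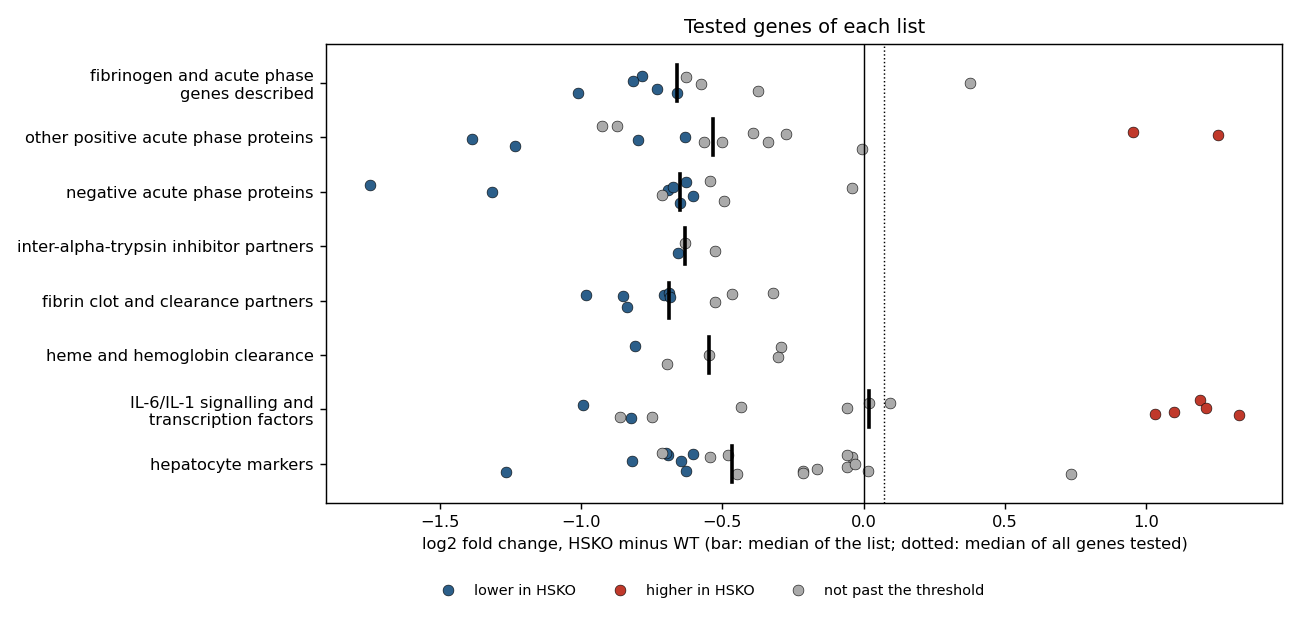
Log2 fold change (HSKO minus WT, x axis) of the tested genes of each list (y axis), with blue for genes called lower, red for genes called higher and grey for the rest. Black bars are list medians, and the dotted line is the median of all genes tested, 0.07. The medians of the lists plotted lie between -0.69 and -0.46, other than that of the signalling list at 0.02, and marker lists other than that of hepatocytes are not plotted.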

How the data were processed

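RNA of 6 mouse liver samples (3 HSKO, 3 WT) was sequenced from both ends after a stranded mRNA library preparation, per the labels' protocols. The deposited values are a normalized signal, gene-level reads that the authors divided by DESeq size factors. Per the submitters' processing notes, the tools were DESeq 1.16.0, RSEM 1.2.9, Bowtie and FastQC 0.11.3, on mm10. The sources used here do not give the annotation or strand setting used in counting, so reads of overlapping genes cannot be told apart. Dividing each value by that of 1 read gave whole reads for 100% of the values above 0, within 0.001.

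The deposited values were tested as log2(value + 1) with limma 3.58.1 in R 4.3.3, with a mean-variance trend, over rows with a mean of at least 10, 2-sided, with Benjamini-Hochberg adjustment at 0.05. On the recovered reads, DESeq2 1.42.0 called 325 rows lower and 584 higher and edgeR 4.0.16 601 lower and 684 higher, against 320 lower and 783 higher in limma. Ratios between genes were compared with exact permutation tests over samples. Intervals and the limit of 3 reads cover counting error only. The fit was tested on simulated data. Same-numbered HSKO and WT libraries did not deviate together (correlations of -0.03, -0.03 and -0.02), so numbers were not taken as pairs. Coordinates and transcript lengths are from GENCODE M21 and promoters from RefSeq.

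The members, gene lists and alternatives were chosen with earlier results of these data known. Named genes were all members, Abca1, up to 6 called genes of each list by smallest p and up to 2 uncalled genes of each list by highest mean, and genes named otherwise are said to be chosen after their values were seen. Alternatives were the 2 count tools, scaling by upper quartile, quantiles, total reads (with and without BC071253) or hepatocyte markers, a pseudocount of 0.5 or 10, a minimum mean of 50 or none, array weights, robust or untrended variances, a replicate block, and leaving out each library. Upper quartile scaling over all rows above 0 was added after seeing the data.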

Additional observations from a re-analysis of the deposited data

How the results depend on the processing

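With pseudocounts of 0.5 and 10 and with robust estimation, the same 5 genes were called lower as in the report, Fga, Fgg, Hp, Hpx and Orm1. The shares of all rows called lower were 11.6%, 12.6% and 12%, in that order. Log2 fold changes are HSKO minus WT throughout. Without the expression filter, 2 of the genes (Hpx and Orm1) and 211 of the 13807 rows then tested (1.53%) were called lower. Fga (-0.66), Fgg (-0.73) and Hp (-0.78) lost the call. Without a mean-variance trend, 1 gene (Orm1) and 266 rows (9.67%) were called lower, and Fga (-0.66), Fgg (-0.73), Hp (-0.78) and Hpx (-0.82) were not. A minimum mean of 50 left 688 rows tested, gave 118 lower (17.2%) and 391 higher (56.8%), and added Fgb (-0.58) and Itih4 (-0.63). Upper quartile scaling called 8 genes and 723 rows lower, adding Fgb (-0.88), Itih4 (-0.93) and Itih3 (-0.67), whereas taken over all rows above 0 it called 3 genes and 207 rows lower, and Fga (-0.55) and Hp (-0.68) lost the call. Quantile normalization called 8 genes and 502 rows lower, adding Fgb (-1.29), Itih4 (-1.10) and Itih3 (-0.80), with Saa4 turned to -0.11. Total reads called 8 genes and 1135 rows lower and 223 higher, adding Fgb (-1.25), Itih4 (-1.30) and Itih3 (-1.04), with Saa4 at -0.30. Without BC071253 the total called 8 genes and 972 rows lower and 438 higher, with Fgb at -1.07, Itih4 at -1.12, Itih3 at -0.86 and Saa4 at -0.11. Hepatocyte marker scaling called 0 genes (0 by limma in either direction) and 20 rows lower, with Fga at -0.083, Fgg at -0.16, Hp at -0.21, Hpx at -0.24 and Orm1 at -0.44, and with Fgb (0.00028) and Itih3 (0.20) turned in sign. Array weights called 490 rows lower (17.8%) and 855 higher (31.1%), with Fgb lower (-0.48) and 1 gene, Saa4, higher (0.87). DESeq2 added Fgb (-0.75) and Itih4 (-0.79). edgeR called 8 genes and 601 rows lower, with Fgb at -0.81, Itih4 at -0.85, Itih3 at -0.63 and Saa4 at -0.0084. The cause of these shifts was not tested.

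With the replicate block, the same 5 genes were called lower, and 269 rows lower and 751 higher. Leaving out each library in turn gave 1 to 6 genes lower, 0 to 1 higher and 154 to 315 rows lower. Ranges of log2 fold changes were -0.80 to -0.53 for Fga, -0.68 to -0.39 for Fgb, -0.84 to -0.59 for Fgg, -0.99 to -0.41 for Hp, -1.05 to -0.63 for Hpx and -0.0073 to 0.89 for Saa4. Log2 differences of ratios ranged from -0.0065 to 0.14 for Fgb to Fga, -0.17 to 0.041 for Fgg to Fga and -0.12 to 0.22 for Hp to Hpx. Ratios to Alb ranged from -0.22 to 0.44 for Fga, -0.10 to 0.57 for Fgb, -0.27 to 0.37 for Fgg, -0.42 to 0.55 for Hp, -0.35 to 0.34 for Hpx, -0.59 to 0.24 for Orm1 and -0.32 to 0.59 for Itih4, and Apcs to Alb turned to 0.17 with a pseudocount of 10. Depth limits Apcs, with 2 reads in HSKO and 27 in WT, and with 3 libraries a group no exact test of a ratio could go below 0.1.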
